A study of Mus musculus with 3 samples.

Results

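The suppressor of cytokine signalling (SOCS) family was followed through mouse bone marrow (BM) treated with the hepatokine LECT2, a leukocyte chemotactic protein. The family consists of 8 genes, Cish and Socs1 to Socs7, which were taken by gene symbol from the 17250 gene names in the deposited tables. All 8 had reads in every library. Flushed BM cells of C57BL/6 mice aged 6 to 8 weeks (males, according to the methods) were sequenced after 0, 3 or 5 days of recombinant LECT2, with 1 library for each time point. The protein, made in Chinese hamster ovary cells, was injected under the skin once a day (300 μg per kg), and marrow was collected 4 h after the last dose. A legend of the study calls the same material BM mononuclear cells, and whether mature neutrophils were depleted is not given in the sources used here. The library of 0 days carries no injection label, and neither the number of mice behind a library nor their pooling is given in the sources used here. Since each time point is 1 library, no difference below has a replicate check and none was tested.

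SOCS proteins are feedback inhibitors of cytokine signalling through Janus kinases (JAKs) and STAT transcription factors. Each carries an SH2 domain that binds phosphorylated tyrosines and a C-terminal SOCS box that recruits elongins B and C and cullin 5 into an E3 ubiquitin ligase. Cish and Socs1 to Socs3 are classical STAT target genes and restrain erythropoietin, interferon, growth hormone, interleukin-6 and granulocyte colony-stimulating factor signalling in haematopoietic cells, whereas Socs4 to Socs7 have a long N-terminal region and are known mostly from receptor tyrosine kinase and insulin signalling.

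The members are spread over 7 mouse chromosomes (GENCODE M21, GRCm38, which is not the mm8 build named in the submitters' processing notes). Cish lies on the plus strand of chromosome 9, from 107296026 to 107302784. Socs1 lies on the minus strand of chromosome 16 from 10782240 to 10785536, and Socs2 on the minus strand of chromosome 10 from 95385362 to 95417180. Chromosome 11 holds both Socs3, from 117966079 to 117970047 on the minus strand, and Socs7, from 97362551 to 97398542 on the plus strand. Socs4 was found on chromosome 14 from 47276931 to 47296102 and Socs5 on chromosome 17 from 87107679 to 87137839, both on the plus strand. The Socs6 gene span contains 3 processed pseudogenes. Cish overlaps an antisense gene and a pseudogene on the opposite strand, and the library protocol describes no step that marks strand, so reads of Cish and of these genes cannot be told apart.

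RefSeq promoter windows (GRCm38.p6) were examined for 4 members, Cish, Socs1, Socs3 and Socs4, and Socs6 was left out of this search. The 250 bases before the RefSeq gene start were searched for the STAT motif TTCNNNGAA, which reads the same on both strands. The motif occurred in 7.02% of 32851 windows of this length. Among the 4 members it was found 1 time, in the Socs3 window, and no match elsewhere says only that these letters are not in that window. RefSeq starts differ from the ends of the GENCODE spans given above, and the windows of Cish and Socs3 lie inside those spans. For Socs3 the span is extended by non-coding transcripts, and the window lies before the coding transcript. The Socs3 window is shown because it holds the motif, and that of Socs4 because this gene had the highest log2 ratio at 5 days among the searched members above 1 RPKM. Both are printed 5′ to 3′ in the direction of the gene, from chr11:117969367-117969616 (minus strand) and chr14:47276670-47276919 (plus strand), with the motif in capitals.
Socs3: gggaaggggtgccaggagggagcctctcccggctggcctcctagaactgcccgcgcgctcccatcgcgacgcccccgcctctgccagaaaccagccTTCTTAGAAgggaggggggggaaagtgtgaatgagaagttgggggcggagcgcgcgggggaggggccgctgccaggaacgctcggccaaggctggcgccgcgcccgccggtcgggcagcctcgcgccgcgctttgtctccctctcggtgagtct
Socs4: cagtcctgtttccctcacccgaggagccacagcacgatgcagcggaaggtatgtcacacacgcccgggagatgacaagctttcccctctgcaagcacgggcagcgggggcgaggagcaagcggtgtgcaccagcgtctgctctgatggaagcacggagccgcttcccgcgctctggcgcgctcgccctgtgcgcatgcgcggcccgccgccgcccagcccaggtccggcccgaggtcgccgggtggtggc
The match in Socs3 lies 154 to 146 bases before the RefSeq start, and 71.6% of the bases in this window and 70.4% in the Socs4 window were G or C. A match is a description of the sequence and not a bound site.

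Depth was alike in the 3 libraries, between 15146983 and 15523952 reads counted on genes. In the deposited values, reads are scaled to the length of the gene and the reads of the library (RPKM). Changes are given on the log2(RPKM + 0.1) scale, on which low genes change less than their counts do, with an exact 95% (Clopper-Pearson) interval of the count ratio, which covers counting error only. The median of the 11144 genes averaging 1 RPKM or more was 0.10 at 3 days and 0.31 at 5 days against 0 days, and 0.02 and 0.01 after TMM scaling. The log2 ratio rose with gene length. Among genes within 10% of the length of Cish the median at 5 days was 0.22, and among genes within 10% of the length of Socs7 it was 0.87. Of 5 defining leukocyte markers, Laptm5 (416 to 522 RPKM), Coro1a (641 to 1209 RPKM) and Itgam (160 to 269 RPKM) were abundant, whereas Ptprc, which encodes CD45, had only 0.949 RPKM at 0 days and Spi1 had no row.

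Socs3, the inhibitor that binds the receptors of interleukin-6 and granulocyte colony-stimulating factor, was the most abundant member at 0 days and fell by 5 days. The 0-day library held 1270 Socs3 reads (29.8 RPKM), the 3-day library 940 (22.6 RPKM) and the 5-day library 354 (8.32 RPKM). The 5-day library thus stood below both others, and the 3-day library stood nearer to 0 days. The 3-day log2 ratio was −0.40 (95% interval −0.52 to −0.28). By 5 days it was −1.83 (−2.02 to −1.67), or 3.55-fold lower on the RPKM + 0.1 scale. From 3 to 5 days it was −1.43 (−1.62 to −1.27). Under the other scalings and after removal of the length trend, the value at 5 days lay between −2.21 and −2.03. After removal of the length trend, 1.45% of the 11497 genes tested at 5 days had a lower log2 ratio than Socs3.

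Socs2, a feedback inhibitor of growth hormone signalling, was next in the order at 0 days. In the order 0, 3 and 5 days it had 209, 105 and 115 reads, or 6.06, 3.12 and 3.34 RPKM. Both treated libraries stood below 0 days and differed little from each other. The log2 ratio against 0 days was −0.94 (−1.31 to −0.61) in the 3-day and −0.84 (−1.20 to −0.53) in the 5-day library, short of 2-fold with the deposited RPKM and past it under TMM scaling, which gave −1.02 and −1.14. Between 5 and 3 days the value was 0.09 (−0.30 to 0.49), and −0.12 under TMM scaling.

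Cish, which is induced through STAT5 and binds the erythropoietin and interleukin-2 receptors, had the same shape as Socs2. Its differences from 0 days were smaller, though within counting error of those of Socs2. The log2 ratio of Cish less that of Socs2 was 0.40 (−0.13 to 0.92) at 3 days and 0.32 (−0.20 to 0.83) at 5 days. The 127, 84 and 87 reads of Cish in the 0-, 3- and 5-day libraries came to 3.79, 2.57 and 2.59 RPKM. Against 0 days the log2 ratio was −0.54 (−0.98 to −0.15) in the 3-day library and −0.53 (−0.96 to −0.14) in the 5-day library. None of the scalings brought Cish past 2-fold, and TMM scaling gave −0.82 at 5 days. The value from 3 to 5 days, 0.02 (−0.43 to 0.47), became −0.20 under TMM scaling.

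Socs1, the inhibitor of interferon-γ signalling that acts directly on JAKs, was close to the limit of these data. Its main row held 4, 6 and 16 reads in the 0-, 3- and 5-day libraries, or 0.192, 0.296 and 0.770 RPKM, and stayed under the minimum of 1 RPKM that was set for calling a change. The log2 ratio at 5 days was 1.57 (0.37 to 4.04). A shorter second row held 0, 1 and 5 reads. Socs1 is 1 of 232 names with several rows. The median of the mean RPKM of such names was 0.341 in the kept row, against 4.35 for the 17018 names with a single row. Ptprc and Csf3r, the receptor of granulocyte colony-stimulating factor, also have 2 rows and had at most 6.45 and 0.953 RPKM in a library. How reads shared by 2 rows were counted is not given in the sources used here, so the level of Socs1 cannot be set against the other members, and the part of the row structure in its count was not tested.

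**Figure D1:**
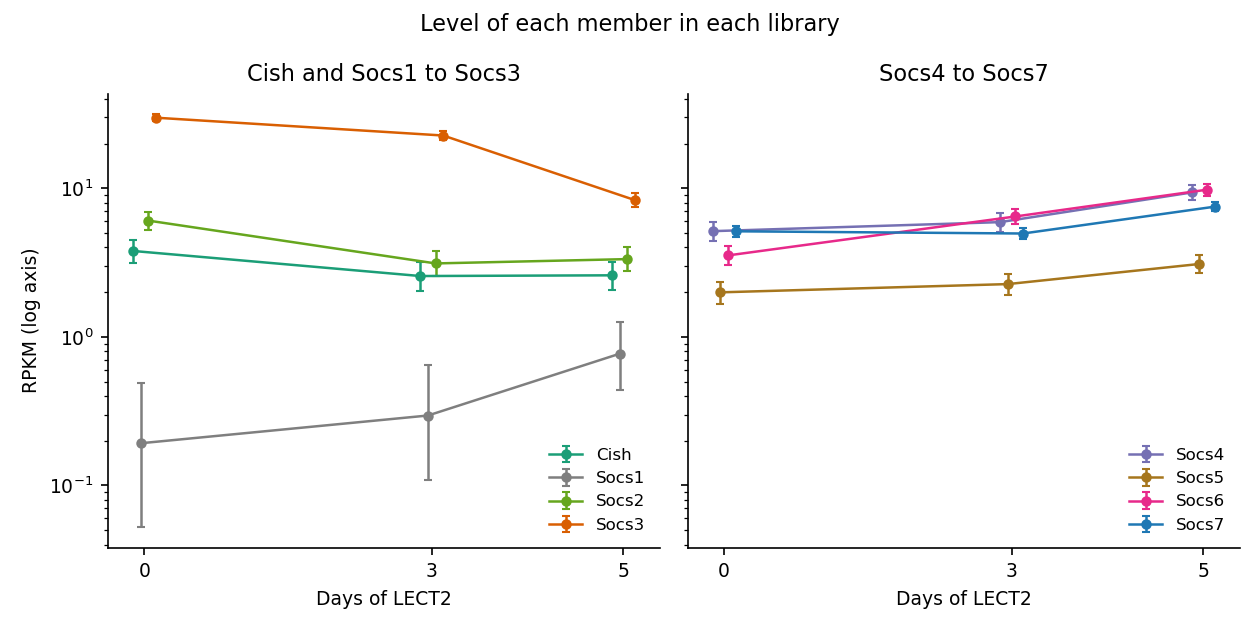
Level of each member in RPKM (log axis) by days of LECT2, 1 library per time point, with bars for the exact Poisson 95% interval of its reads. Socs3 starts at 29.8 RPKM and ends at 8.32, Socs2 and Cish lie lower in both treated libraries, Socs6 goes from 3.53 to 9.78 RPKM, and the wide bars of Socs1 rest on 4 to 16 reads.

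Socs6, which binds KIT and the insulin receptor, rose by 5 days. Its reads went from 176 (3.53 RPKM) in the 0-day library through 314 (6.46 RPKM) to 487 (9.78 RPKM) in the 5-day library. Each later library stood above the one before it. The 3-day log2 ratio was 0.85 (0.60 to 1.15) and the 5-day value 1.44 (1.22 to 1.73), or 2.72-fold higher on the RPKM + 0.1 scale. TMM scaling left 1.14 at 5 days, and removal of the length trend left 0.97, just under 2-fold. Among all genes tested at 5 days, 94.7% had a lower log2 ratio than Socs6, and 94.5% after removal of the length trend.

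Socs4, a SOCS protein tied to epidermal growth factor receptor turnover, lay closest to Socs6 in its level at 5 days. Its reads numbered 172, 193 and 313, or 5.14, 5.92 and 9.37 RPKM. The difference appeared between 3 and 5 days, where the log2 ratio was 0.65 (0.40 to 0.93), while that from 0 to 3 days was 0.20 (−0.10 to 0.51). At 5 days against 0 days it was 0.85 (0.59 to 1.14), 0.55 under TMM scaling and 0.63 after removal of the length trend. The tables give Socs4 a length of 2154 bases, whereas its longest coding transcript in GENCODE has 6877 bases, and Socs6 has 3210 and 6036 bases in the same sources. RPKM divides the reads by the listed length, so the levels of both genes rest on it.

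Against 0 days, Socs5 and Socs7 were the members whose direction depended on gene length. Socs5, described as a brake on interleukin-4 and epidermal growth factor receptor signalling, was counted with 138, 153 and 214 reads (1.99, 2.26 and 3.09 RPKM). Its log2 ratio at 5 days was 0.61 (0.32 to 0.95) with the deposited RPKM and −0.01 after removal of the length trend. Socs7, an adaptor linked to insulin signalling, had the longest listed transcript, 7015 bases. It had 559, 527 and 818 reads (5.13, 4.96 and 7.52 RPKM). The 3-day log2 ratio was −0.05 (−0.22 to 0.12) and the 5-day value 0.54 (0.39 to 0.71), and they were −0.56 and −0.26 after removal of the length trend. Relative to genes of their own length, then, neither gene stood above the middle at 5 days.

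**Figure D2:**
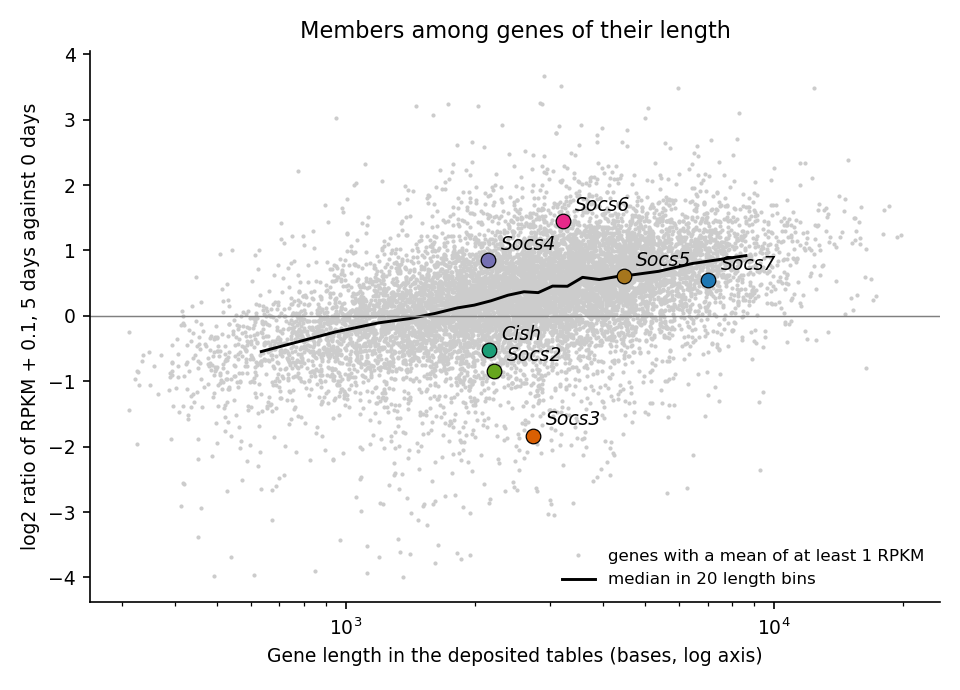
Log2 ratio of RPKM + 0.1 at 5 days against 0 days by gene length in bases (log axis), for 11056 of the 11144 genes averaging 1 RPKM or more, with the other 88 beyond the axes. The black line is the median in 20 length bins; Socs6 and Socs4 lie above it, Cish, Socs2 and Socs3 below it, Socs5 on it and Socs7 (0.54, or −0.26 after removal of the length trend) just under it.

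Counted over the family, none of the 7 members that passed the minimum was at least 2-fold higher or lower at 3 days, where 4.08% of 11325 genes were higher and 2.41% lower. At 5 days 1 member, Socs6, was at least 2-fold higher and 1, Socs3, at least 2-fold lower, where 15.5% of 11497 genes were higher and 5.91% lower. From 3 to 5 days Socs3 alone was called, as lower, and no member was higher, where 3.45% of 11375 genes were lower and 1.95% higher. These counts lie near what the background shares give for a list of this size. The median log2 ratio of all 8 members was 0.06 at 3 days, 0.58 at 5 days and 0.51 between 5 and 3 days, against 0.10, 0.31 and 0.25 over the 11144 genes averaging 1 RPKM or more. Socs1, below the minimum, is among the 8. Without it the middle value was that of Socs7 at 3 days (−0.05) and 5 days (0.54), and that of Socs5 between 5 and 3 days (0.43). The sign of the 3-day median depended on the setting, with −0.02 under TMM scaling, −0.01 under median-of-ratios scaling, −0.03 without the 100 genes of highest mean RPKM and −0.35 after removal of the length trend. At 5 days the family median was 0.27 under TMM scaling and −0.14 after removal of the length trend, and between 5 and 3 days these settings gave 0.29 and 0.21. The comparisons of 3 and of 5 days share the 0-day library.

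**Figure D3:**
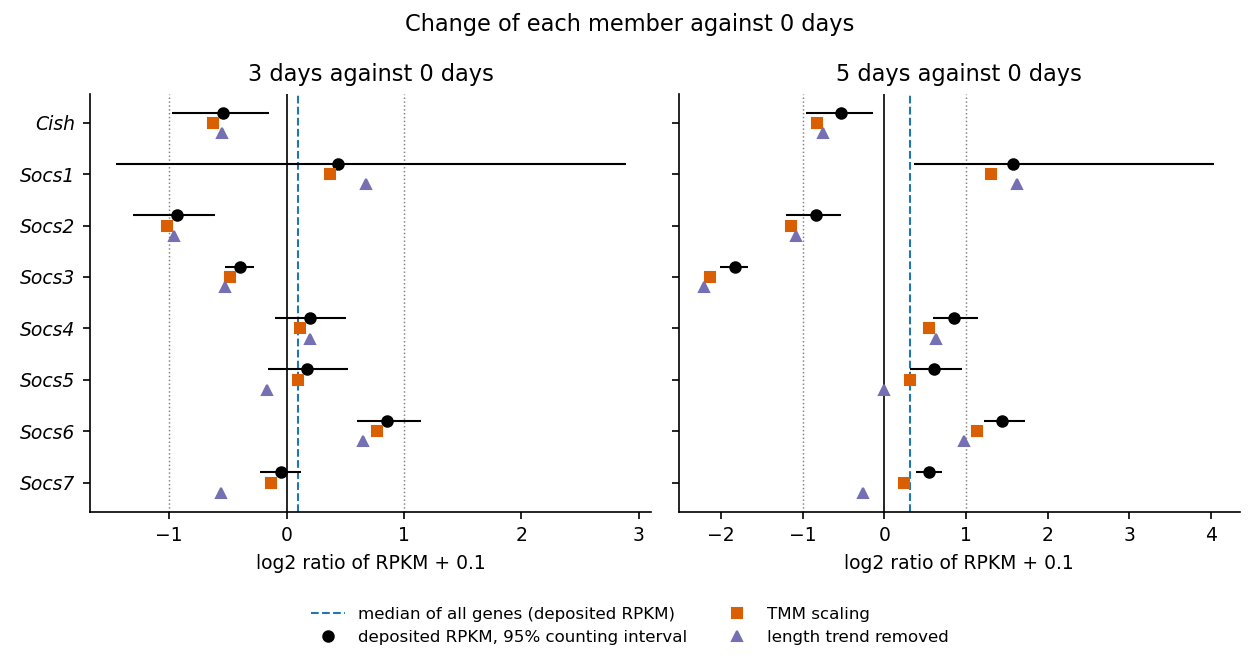
Log2 ratio of RPKM + 0.1 of each member against 0 days, at 3 days (left) and 5 days (right), with the deposited RPKM and its 95% counting interval (circles), TMM scaling (squares) and the length trend removed (triangles). Dotted lines mark 2-fold and the dashed line the median of all genes; Cish, Socs2 and Socs3 lie left of 0 under each setting drawn, Socs4 and Socs6 right of it, and Socs7 at 5 days goes from 0.54 to −0.26.

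The order of the levels changed in part between 0 and 5 days, while pairs such as Socs3 over Socs2, Socs4 over Socs7 and Socs2 over Cish kept theirs. Socs1 is left out of this order because of its row structure. At 0 days it ran from Socs3 through Socs2, Socs4, Socs7, Cish and Socs6 to Socs5. Socs3 stood 4.92-fold above Socs2 (95% interval 4.25 to 5.73), while Socs2 and Socs4, Socs4 and Socs7, and Cish and Socs6 were not told apart by the exact interval of their length-scaled counts. At 3 days Socs3 was 3.50-fold above Socs6 (3.08 to 3.99), which had moved to the second place. Socs6 and Socs4, Socs2 and Cish, and Cish and Socs5 were not told apart there. At 5 days Socs6, Socs4, Socs3 and Socs7 came first, between 9.78 and 7.52 RPKM, and no neighbours among these 4 were told apart. Socs7 stood 2.25-fold above Socs2 (1.85 to 2.76), and Socs2, Socs5 and Cish followed, with no neighbours among these 3 told apart.

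The make-up of the family shifted accordingly, with Socs1 again left out. In the 0-, 3- and 5-day libraries the other 7 members summed to 55.5, 47.9 and 44.0 RPKM. Socs3 held 53.8%, 47.2% and 18.9% of it. Cish, Socs2 and Socs3 together held 71.5%, 59.1% and 32.4%, and Socs4 to Socs7 the remaining 28.5%, 40.9% and 67.6%. Less Socs3 the sum was 25.6, 25.3 and 35.7 RPKM. These sums and shares rest on the deposited RPKM and the listed lengths, and they carry the length trend. After its removal the 5-day log2 ratios were 0.97 for Socs6, 0.63 for Socs4, −0.01 for Socs5 and −0.26 for Socs7.

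**Figure D4:**
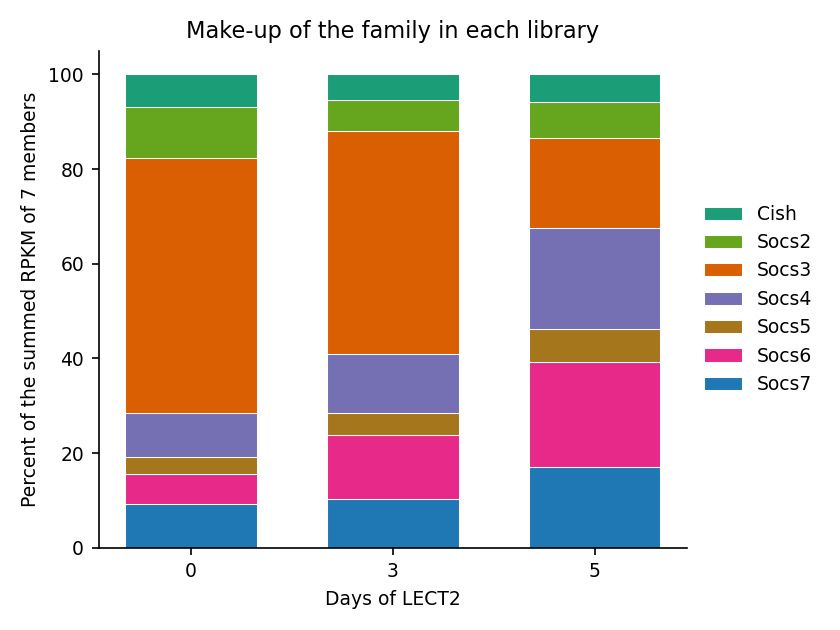
Percent of the summed RPKM of the 7 members other than Socs1 held by each, by days of LECT2 (1 library per bar). Socs3 takes 53.8% of the bar at 0 days and 18.9% at 5 days, and Socs4 to Socs7 together go from 28.5% to 67.6%. The length trend was not removed from these shares.

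Ratios of a pair of members within a library do not depend on how the library is scaled, and show unequal change rather than which gene changed. Socs3 was 8.45 times the level of Socs6 at 0 days and 0.851 times at 5 days, a difference of log2 ratios of −3.31 (approximate 95% counting interval −3.61 to −3.01). Socs2 and Socs4, whose listed lengths differ by 68 bases, went from a ratio of 1.18 to 0.356, a difference of −1.73 (−2.15 to −1.30), which was −1.72 after removal of the length trend. Cish and Socs4, 7 bases apart in length, went from 0.736 to 0.277, a difference of −1.41 (−1.89 to −0.93). Against Socs4, then, all of Cish, Socs2 and Socs3 lost ground by 5 days by more than counting error.

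For each member above 1 RPKM, the genes nearest in their pair of log2 ratios against 0 days were looked up among the 8192 genes averaging 5 RPKM or more. Such likeness over 3 libraries is a description with 2 values per gene. Nearest to Socs3 were Hdc, which encodes histidine decarboxylase (242, 185 and 66.2 RPKM), and Lcn2, a neutrophil granule protein (10826, 8085 and 3136 RPKM). Within 0.1 lay 4 genes around Socs3, 29 around Socs2, 40 around Socs6, 87 around Cish, 128 around Socs7, 137 around Socs4 and 221 around Socs5. Socs2 lay nearest to the ribosomal protein genes Rpl22 and Rps28, and Cish to Ier3ip1 and Fam173b. Nearest to Socs4 were Reep4 and Hjurp, to Socs5 Sars2 and Brcc3, to Socs6 Tm9sf4 and Usp6nl, and to Socs7 Prkcsh and Pold1.

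Most of the tested cytokine ligands that signal through JAKs, and so induce Cish and Socs1 to Socs3, were lower at 5 days. Of 12 ligands tested at 5 days 9 were at least 2-fold lower and 0 higher, with a median of −1.85. Among all genes tested 5.91% were lower and 15.5% higher. Of the 9, Il4, Il10, Il11, Tslp, Ifnb1 and Il23a passed the minimum only through the 0-day library, so they could not have been called higher. The median includes them. Il6, Osm and Ifng passed the minimum in both libraries. After removal of the length trend the median was −1.76, with 9 lower and 1 higher, Clcf1 (6.38, 12.3 and 11.0 RPKM, log2 ratio 0.78, or 1.14 after removal). Il6 had 85.5, 38.6 and 10.7 RPKM in the 0-, 3- and 5-day libraries (5-day log2 ratio −2.98, 95% interval −3.22 to −2.77). Osm, encoding oncostatin M, had 279, 281 and 78.8 RPKM (−1.82, −1.89 to −1.76), and its 3-day library lay near 0 days. Il10 had 9.37, 3.08 and 0.395 RPKM, and Ifng 6.35, 1.97 and 1.66 RPKM. Ifnb1 and Il23a had 31 and 61 reads at 0 days and no read at 5 days. The 95% intervals of their log2 count ratios ended at −2.98 and −4.00. With a floor of 3 reads in the 5-day library, their log2 ratios on the RPKM + 0.1 scale were −2.94 and −3.63. Il12a, at 41.9, 35.1 and 35.0 RPKM, was short of 2-fold.

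Of 27 cytokine receptors tested at 5 days 5 were at least 2-fold higher and 1 lower, with a median of 0.29. These counts and the median lie near the background of 15.5% higher, 5.91% lower and a median of 0.31 over all genes. Il6ra and Il6st, the chains of the interleukin-6 receptor to which Socs3 binds through gp130, went from 11.8 to 39.6 RPKM (log2 ratio 1.74) and from 3.73 to 16.4 RPKM (2.10). Csf2rb (22.3 to 52.3 RPKM) and Il13ra1 (5.77 to 12.8 RPKM) were also higher, as was Il12rb2 (0.918 to 1.95 RPKM), and Lepr was lower (1.82 to 0.856 RPKM). After removal of the length trend and under TMM scaling 2 receptors were still higher, Il6ra and Il6st, and 2 were lower, Lepr and Il21r. The most abundant receptors, Csf2ra, Ifngr1 and Il2rg, had log2 ratios of 0.51, 0.29 and −0.08. Of 5 receptor tyrosine kinases bound by SOCS proteins 1 was higher, Csf1r (26.7 to 85.3 RPKM, 1.67), and the next by level, Igf1r and Flt3, had −0.35 and −0.09. Removal of the length trend left Csf1r at 1.11 and brought Igf1r to −1.36, past 2-fold lower, and the median of these receptors from 0.70 to −0.22. Among the 4 JAKs, Jak2 (14.1, 21.3 and 28.5 RPKM) and Tyk2 (9.76, 16.9 and 25.3 RPKM) were past 2-fold at 5 days, with 1.01 and 1.36, and Jak1 and Jak3 had 0.52 and 0.97. Under TMM scaling only Tyk2 (1.06) was past 2-fold, and after removal of the length trend no JAK was. The STAT genes given here were short of 2-fold at 3 and 5 days, with log2 ratios at 5 days of 0.71 for Stat2, 0.02 for Stat3, −0.50 for Stat4, 0.70 for Stat5a, 0.33 for Stat5b and 0.58 for Stat6. After removal of the length trend these became 0.10, −0.60, −0.92, 0.13, −0.36 and 0.02 in the same order, so the sign turned for Stat3 and Stat5b, and TMM scaling turned that of Stat3 (−0.29). The median of the receptors became −0.01 under TMM scaling, so its sign depended on the setting.

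The partners that the SOCS box needs were all present. For the counts below, 15.5% of all genes tested at 5 days were higher and 5.91% lower, and the counts of the 15 other SOCS box proteins lie near these shares. Of 8 subunits of the E3 ligase 0 were called at 5 days, with a median of −0.29, which was −0.59 under TMM scaling and −0.02 after removal of the length trend. Tceb2, encoding elongin B, had 301, 196 and 208 RPKM, and the ubiquitin-conjugating enzyme gene Ube2l3 80.9, 92.4 and 115 RPKM. Tceb1, encoding elongin C, had 63.2, 49.5 and 38.5 RPKM (−0.71, or −1.02 and past 2-fold under TMM scaling). Of 15 other SOCS box proteins 2 were higher and 0 lower, with a median of 0.15, or −0.15 under TMM scaling. These were Asb13 (0.241, 1.04 and 1.79 RPKM), which has several rows, and Spsb4 (0.317, 0.473 and 1.62 RPKM). Wsb1, the most abundant of these genes, had 94.8, 76.9 and 61.6 RPKM, and the next by level, Spsb3 and Wsb2, had log2 ratios of 0.20 and 0.14. Of 12 other negative regulators of JAK-STAT signalling 4 were higher and 0 lower at 5 days, with a median of 0.64. Cbl, a ubiquitin ligase for tyrosine kinases, went from 2.56 to 15.4 and 24.0 RPKM (3.18), Sh2b3, encoding the adaptor LNK, from 10.3 to 31.4 and 40.7 RPKM (1.98), and Pias2, encoding an inhibitor of STAT DNA binding, from 4.36 to 6.85 and 9.19 RPKM (1.06). After removal of the length trend 3 were higher and 1, Ptpn2 (−1.25), was lower, with a median of 0.21, and Pias2 fell short of 2-fold there (0.40) and under TMM scaling (0.76). Ptprc, the remaining one of the 4, has the row structure described for Socs1. The phosphatase gene Ptpn6, with 181, 216 and 213 RPKM, had 0.23, and Ptpn1, with 34.4, 48.1 and 49.8 RPKM, had 0.54.

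Other STAT target genes were set beside the members. Of 10 STAT3 targets 2 were lower at 5 days, Junb (716, 535 and 210 RPKM, −1.77) and Fos (700, 890 and 319 RPKM, −1.14), and both are also immediate early genes. Of 10 STAT5 targets 1 was lower, Osm, while Mcl1 and Pim1 had −0.99 and −0.80. No target of these lists was at least 2-fold higher at 5 days. At 3 days 1 was, the STAT5 target Bcl6 (10.03, 20.3 and 12.1 RPKM, 3-day log2 ratio 1.01), and 0 were under TMM scaling or after removal of the length trend. The medians were −0.61 for STAT3 and −0.30 for STAT5 targets. TMM scaling gave 5 STAT3 targets lower, adding Mcl1 (−1.29), Pim1 (−1.11) and Cebpb (−1.06), and 3 STAT5 targets lower, with medians of −0.92 and −0.61. Removal of the length trend gave 3 and 2 lower, adding Mcl1 (−1.50) to both lists.

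**Figure D5:**
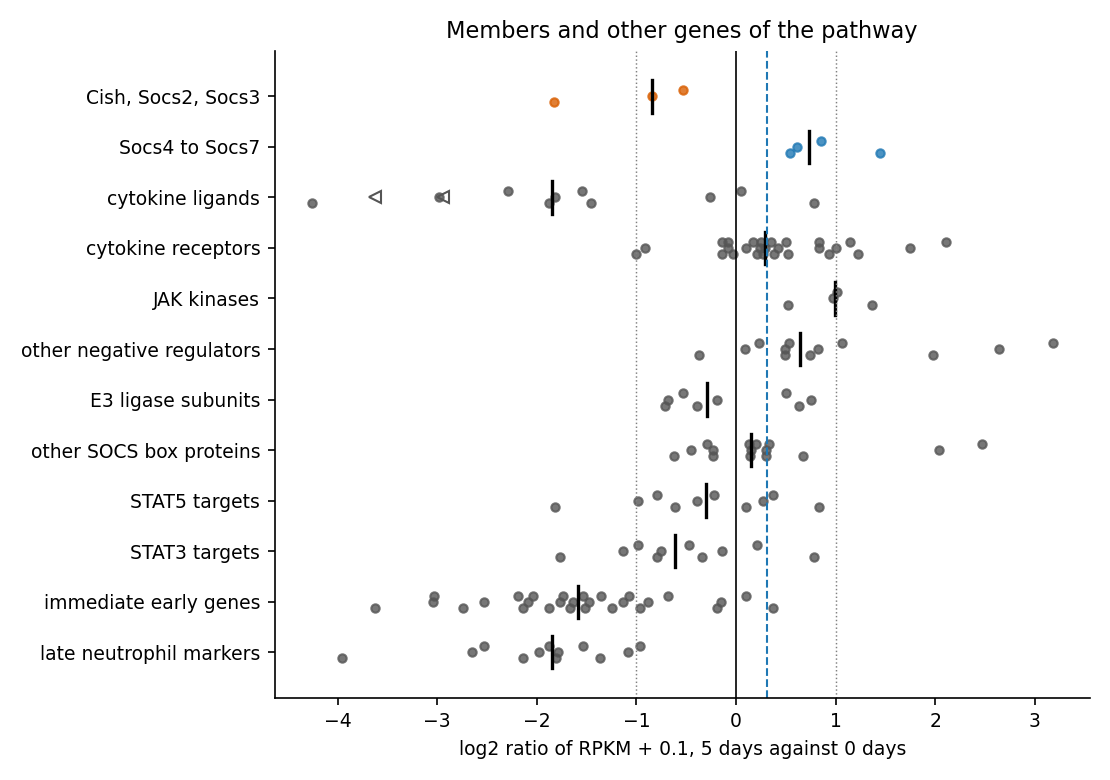
Log2 ratio of RPKM + 0.1 at 5 days against 0 days for genes of each list with at least 1 RPKM in either library, 1 point per gene, with the list median as a black bar. Dotted lines mark 2-fold, the dashed line the median of all genes (0.31), and open triangles the upper bounds of 2 ligands without reads at 5 days. Cish, Socs2 and Socs3 lie on the side of the cytokine ligands (median −1.85), some of which passed the minimum only at 0 days. Socs4 to Socs7 lie on that of the JAKs (0.99, or 0.37 after removal of the length trend). Of these members, Socs5 and Socs7 are at −0.01 and −0.26 after removal of the length trend.

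Neutrophil markers and immediate early genes were mostly lower at 5 days, as were Socs3, the tested cytokine ligands and the osteolineage markers. The shares over all genes tested were 4.08% higher and 2.41% lower at 3 days, and 15.5% higher and 5.91% lower at 5 days. At 5 days a count of 1 in a marker list below lies near what these shares give. Of 28 immediate early genes 2 (Ier3 and Maff) were past 2-fold lower in the 3-day and 21 in the 5-day library, with medians of −0.23 and −1.59. Of 12 late neutrophil markers tested 0 were called at 3 days and 11 were lower at 5 days, with medians of −0.08 and −1.84, and the 13 with a row summed to 149955, 116083 and 41409 RPKM. The defining marker Ly6g had no row and Csf3r had at most 0.953 RPKM. Socs3, at −0.40 and −1.83, lay below both medians at 3 days and near them at 5 days, where the cytokine ligands also had a median of −1.85. After removal of the length trend Socs3 had −2.21 at 5 days. The medians were then −1.61 for the late neutrophil markers and −1.80 for the immediate early genes. Macrophage and monocyte markers had 7 of 15 higher and 1 (Cd14) lower at 5 days against 0 days, or 4 higher and 1 lower under TMM scaling. From 3 to 5 days 0 were higher and 1 lower, and their summed level was 5409, 6851 and 5949 RPKM. Promyelocyte markers had 1 of 7 (Mpo) higher, with a summed level of 2484, 2358 and 3916 RPKM, and erythroid markers 3 of 11 (the globin genes Hbb-b1, Hba-a1 and Hba-a2) lower, with 5791, 4590 and 1930 RPKM. Of osteolineage markers 7 of 8 were lower, and their summed level was 93.3, 88.2 and 35.3 RPKM. At 5 days B cell markers had 1 of 12 (Rag1) higher, whereas TMM scaling gave 0 higher and 1 (Vpreb1) lower and removal of the length trend 0 of either. At 5 days also, T and NK cell markers had 1 of 15 (Cd3d) lower, or 4 under TMM scaling. Megakaryocyte markers had 1 of 9 (Selp) lower, or 2 under TMM scaling or after removal of the length trend. Stem and progenitor markers had 0 of 10 called, or 1 lower under TMM scaling. T and NK cell markers were lowest at 3 days, where Socs2 had −0.94 and Cish −0.54. There 3 of 15 (Cd3e, Cd3d and Gzma) were at least 2-fold lower, with a median of −0.68, or 4 under TMM scaling and 1 after removal of the length trend, and their summed level was 352, 210 and 279 RPKM in the 0-, 3- and 5-day libraries. From 3 to 5 days the median of these markers was 0.42, while Socs2 had 0.09 and Cish 0.02. At 5 days against 0 days it was −0.19, while Socs2 had −0.84 and Cish −0.53. In the 3-day library 2 of 9 megakaryocyte markers (Pf4 and Ppbp, median −0.36) and 1 of 10 stem and progenitor markers (Procr, median −0.41) were also lower, and 1 B cell marker, Rag1, was higher. Of macrophage and monocyte markers 2 of 15 were higher there (median 0.56), or 1 under TMM scaling. The part of these cells in the values of the members was not tested, and in bulk RNA fewer cells of a type and less RNA per cell cannot be told apart.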

How the data were processed

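Flushed BM cells (BM mononuclear cells in a legend of the study) were analysed as 1 poly(A)-selected RNA-sequencing library each at 0, 3 and 5 days of LECT2. For each pair of libraries the authors deposited whole read counts per gene row, the RPKM made from these counts, and the listed gene length. Their log2 ratios, P values and false discovery rates are comparisons and were not used. The methods name Cufflinks for quantitation and the processing notes name the build mm8. The aligner, the annotation and the counting of reads shared by rows are not given in the sources used here. The deposited RPKM used the gene length and the reads on all listed genes, to within 0.1%, apart from 18 rows at 0 days and 14 at 3 days. Rows without reads, listed at 0.01 RPKM, were set to 0. For a repeated symbol the row of highest mean RPKM was taken. All sample columns were mapped.

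With 1 library per group no count model could be fitted, and edgeR 4.0.16 (TMM) and DESeq2 1.42.0 (median of ratios) served for scaling only. A change was called at 2-fold or more with at least 1 RPKM in either library, using a pseudocount of 0.1. Counting intervals at 95% cover counting error only, since amplified reads that carry no molecular identifiers need not stem from separate molecules. The length trend was removed with lowess (span 0.3, statsmodels 0.14.6). The members and gene lists were chosen with earlier results of these data known. Named are all members, the JAKs and STATs, of each pathway list the 3 genes with the highest mean RPKM and those past 2-fold with at least 5 RPKM, and the 2 nearest genes of each member. Of the marker lists, which are given by counts and sums, and of the immediate early genes single genes are named only where a result turns on them or a count is 5 or fewer. These were chosen after their values were seen, as were Clcf1, Il4, Il11, Tslp, Il12rb2, Lepr, Il21r, Ptpn2, Cebpb, Asb13, Spsb4, Ifnb1, Il23a, Ptprc and Csf3r. One gene of the pathway and the list tied to it are not reported here. The steps were tested on simulated counts. Python 3.11.15, pandas 2.3.3, numpy 2.4.6, scipy 1.17.1, matplotlib 3.10.9 and R 4.3.3 were used.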

Additional observations from a re-analysis of the deposited data

Results flagged for a closer look

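Socs7 had log2 ratios of opposite sign in the treated libraries, −0.05 at 3 days and 0.54 at 5 days against 0 days. The counting interval of the 3-day value (−0.22 to 0.12) includes 0, so its sign lies within counting error. The difference between the time points was not tested, since each is 1 library. After removal of the length trend both values were below 0, at −0.56 and −0.26.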

How the results depend on the processing

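With 1 library per time point no library could be left out. No paired analysis was possible because each time point has 1 library and the labels give no replicate numbers. The median log2 ratio of the 8 members at 5 days against 0 days, 0.58, was 0.27 under TMM scaling, 0.29 under median-of-ratios scaling and −0.14 after removal of the length trend. Of members at least 2-fold lower at 3 days there were 0, but 1 under TMM scaling, median-of-ratios scaling, scaling without the 100 genes of highest mean RPKM and a fold of 1.5. Of members at least 2-fold higher at 3 days there was 1 at a fold of 1.5. The 1 member lower at 5 days against 0 days became 2 under each of these 4 settings and after removal of the length trend, and 0 at a fold of 4. The 1 member higher became 2 with the sum of all rows and with no minimum, 3 at a fold of 1.5, and 0 after removal of the length trend and at a fold of 4. Between 5 and 3 days the 1 member lower became 0 at a fold of 4, and the 0 higher became 1 with the sum of all rows and with no minimum and 3 at a fold of 1.5. The gains with the sum of rows and with no minimum were Socs1, whose 2 rows together had 4, 7 and 21 reads in the 0-, 3- and 5-day libraries (5-day log2 ratio of the counts 2.39). Removal of the length trend from ratios of a pair of members was chosen after seeing the data.

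Of 24 log2 ratios of members, TMM scaling moved 8, median-of-ratios scaling 7, leaving out the top 100 genes 2 and removal of the length trend 11 beyond their counting interval, each of them downward. Signs changed for Cish and Socs2 between 5 and 3 days under all 4, and under the length correction also for Socs5 at 3 days (−0.17) and at 5 days (−0.01) and for Socs7 at 5 days. The pseudocounts of 0.01 and 1 and the sum of rows changed no sign of these 24. The cause was not tested.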
